A study of Mus musculus with 12 samples.

Results

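Wfs1, Pou3f1, Fibcd1, Mpped1, Man1a, Spink8 and Meis2 are 7 genes that serve as markers of CA1 pyramidal neurons in the mouse hippocampus, and their levels were measured in CA1, CA3 and DG (dentate gyrus) in 4 histological conditions. The genes were selected by their level in CA1 against the other regions, with results of these data known, and all 7 were found by symbol among the 32546 genes of the count table. Their differences between regions are therefore a description without a test. The 7 are tested only for differences between histological conditions, which were not the contrast of the selection. These tests share CA1 values with the selection, and those in CA1 replicates alone rest on CA1 values only. Independence from the selection is therefore not shown. The libraries were made by photo-isolation chemistry (PIC), in which mRNA is reverse-transcribed in the section with primers blocked by a light-sensitive group, and light freed the primers only in the region that was irradiated. Sections came from male ICR mice aged 8 weeks. In 2 of the conditions the sections were fresh-frozen, and 0.1 N HCl (5 min) or TE (Tris-EDTA, 1 h at 70 °C) made them permeable. The other 2 were frozen sections of tissue fixed with 4% PFA and permeabilized with TE, and paraffin sections of tissue fixed with 4% PFA and permeabilized with TE. Each region and condition had 4 replicates, 48 in all, and which mouse gave which replicate is not named in the labels, so the p-values measure the spread between these replicates. The series description writes CA2 where the sample titles write CA3, and CA3 is used here.

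CA1 and CA3 are the pyramidal cell fields of the hippocampus, and DG holds the granule cells. Signals run from DG through CA3 to CA1, and the excitatory neurons of each field keep their own set of transcription factors, receptors and enzymes, by which the fields are told apart in sections. Wfs1 encodes wolframin, a membrane protein of the endoplasmic reticulum that is mutated in Wolfram syndrome and is widely used to stain CA1 pyramidal cells. Man1a encodes a mannosidase of the Golgi that trims N-linked glycans. Pou3f1 encodes a POU-domain transcription factor, and Meis2 a homeodomain transcription factor of the TALE class that binds DNA together with Pbx proteins. Fibcd1 encodes a membrane receptor with a fibrinogen-like domain that binds acetylated sugars. Spink8 belongs to the Kazal-type serine protease inhibitors, and Mpped1 encodes a protein with a metallophosphoesterase domain.

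All 7 genes are protein-coding in GENCODE M21 (build GRCm38). Wfs1 lies on the minus strand at chr5:36966104-36989205, Man1a on the minus strand at chr10:53904785-54076609, Meis2 on the minus strand at chr2:115863064-116065839 and Fibcd1 on the minus strand at chr2:31813290-31846005. On the plus strand are Pou3f1 at chr4:124656807-124660655, Mpped1 at chr15:83779467-83858494 and Spink8 at chr9:109812280-109826633. Pou3f1 has a single exon, and 330 of its exonic bases are shared with Gm2164 on the opposite strand. Man1a shares 147 exonic bases with Gm16998 on the opposite strand, which held 10 UMIs over all replicates. The counting command named in the methods sets no strand option, so reads of such partners cannot be told apart there.

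RefSeq promoter windows (build GRCm38.p6), from 250 bases before to 50 bases after the start of each entry, were at hand for 5 of the 7 genes, in 6 entries because Mpped1 has 2. The windows of Meis2, Man1a and Mpped1 lie within the GENCODE gene bounds given above. Those of Wfs1 and Fibcd1 span the 5′ end of the gene. The windows are described because the genes share a regional pattern that the sequences were not used to choose. CpG dinucleotides were frequent in 4 of the 5 genes: Fibcd1 had 46, Man1a 38, Wfs1 30 and the upstream Mpped1 entry 59, against a median of 18 (quartiles 8 and 28) over the 15737 entries of genes with at least 10 UMIs in all. Meis2 had 13, and the second Mpped1 entry 3. Wfs1 and Meis2 are printed for this contrast between entries, 5′ to 3′ on the minus strand, with every CpG in capitals, at chr5:36988933-36989232 for Wfs1 and chr2:116064570-116064869 for Meis2.
Wfs1: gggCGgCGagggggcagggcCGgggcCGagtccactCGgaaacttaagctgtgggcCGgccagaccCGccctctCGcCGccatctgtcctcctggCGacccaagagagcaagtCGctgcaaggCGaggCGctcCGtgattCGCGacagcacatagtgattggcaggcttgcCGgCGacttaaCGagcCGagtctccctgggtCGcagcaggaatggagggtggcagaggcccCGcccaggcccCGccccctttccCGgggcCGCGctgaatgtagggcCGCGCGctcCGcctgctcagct
Meis2: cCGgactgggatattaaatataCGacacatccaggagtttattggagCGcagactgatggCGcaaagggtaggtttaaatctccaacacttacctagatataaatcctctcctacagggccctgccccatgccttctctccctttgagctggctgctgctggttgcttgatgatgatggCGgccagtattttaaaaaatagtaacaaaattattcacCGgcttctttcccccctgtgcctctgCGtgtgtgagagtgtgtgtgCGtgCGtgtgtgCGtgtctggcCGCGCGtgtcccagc
Since 2 of the 7 genes encode transcription factors, the windows were searched on both strands for the POU octamer (ATGCAAAT) and a MEIS site (TGACAG). The octamer was in none of the 6 entries and in 1.26% of the entries of genes with at least 10 UMIs. The MEIS letters were in 1 entry, that of Man1a, and in 17.2% of those entries. The match starts 64 bases before the RefSeq start of this Man1a entry, which lies inside the GENCODE gene bounds given above. The letters are shown in capitals, read as the reverse complement, at chr10:54075784-54075813 on the minus strand.
Man1a: ggcccggacgcgCTGTCActctccggacgc
These matches describe the letters only.

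UMIs (unique molecular identifiers) mark single cDNA molecules, and levels are given as CPM, the UMIs of a gene scaled to a replicate total of 1000000. The totals ranged from 35932 to 1111804 UMIs per replicate, with 127253 to 933756 after HCl and 294445 to 1111804 after TE in fresh-frozen tissue, from 52800 to 307145 in fixed frozen sections and from 35932 to 223055 in paraffin sections. The 4 replicates of a region and condition were sequenced as 1 library, so library and region coincide within a condition. The identity of the regions was checked with marker lists for CA3 (5 genes) and DG (7 genes). The summed level of the CA3 list was above that in CA1 and DG in all CA3 replicates of the 3 frozen conditions, and overlapped DG in paraffin sections, where it ranged from 439 to 877 CPM in CA3 and from 390 to 513 CPM in DG. The DG list was highest in all DG replicates of every condition, with at least 631 CPM in DG and at most 532 CPM elsewhere. Markers of oligodendrocytes, which form myelin, also differed by region: the 7 genes summed to between 9492 and 18852 CPM in CA1, 7286 and 10254 CPM in CA3 and 3367 and 5410 CPM in DG of HCl-permeabilized sections, with none of the 7 at 0. The same list stood at 6262 to 10612, 5665 to 8001 and 2620 to 3477 CPM with TE, at 7865 to 16802, 2973 to 6223 and 1901 to 2940 CPM in fixed frozen sections and at 13589 to 22560, 8696 to 18987 and 5695 to 17131 CPM in paraffin sections. Its part in the differences below was not tested. In bulk samples like these, fewer cells of a type and less RNA per cell cannot be told apart.

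**Figure D1:**
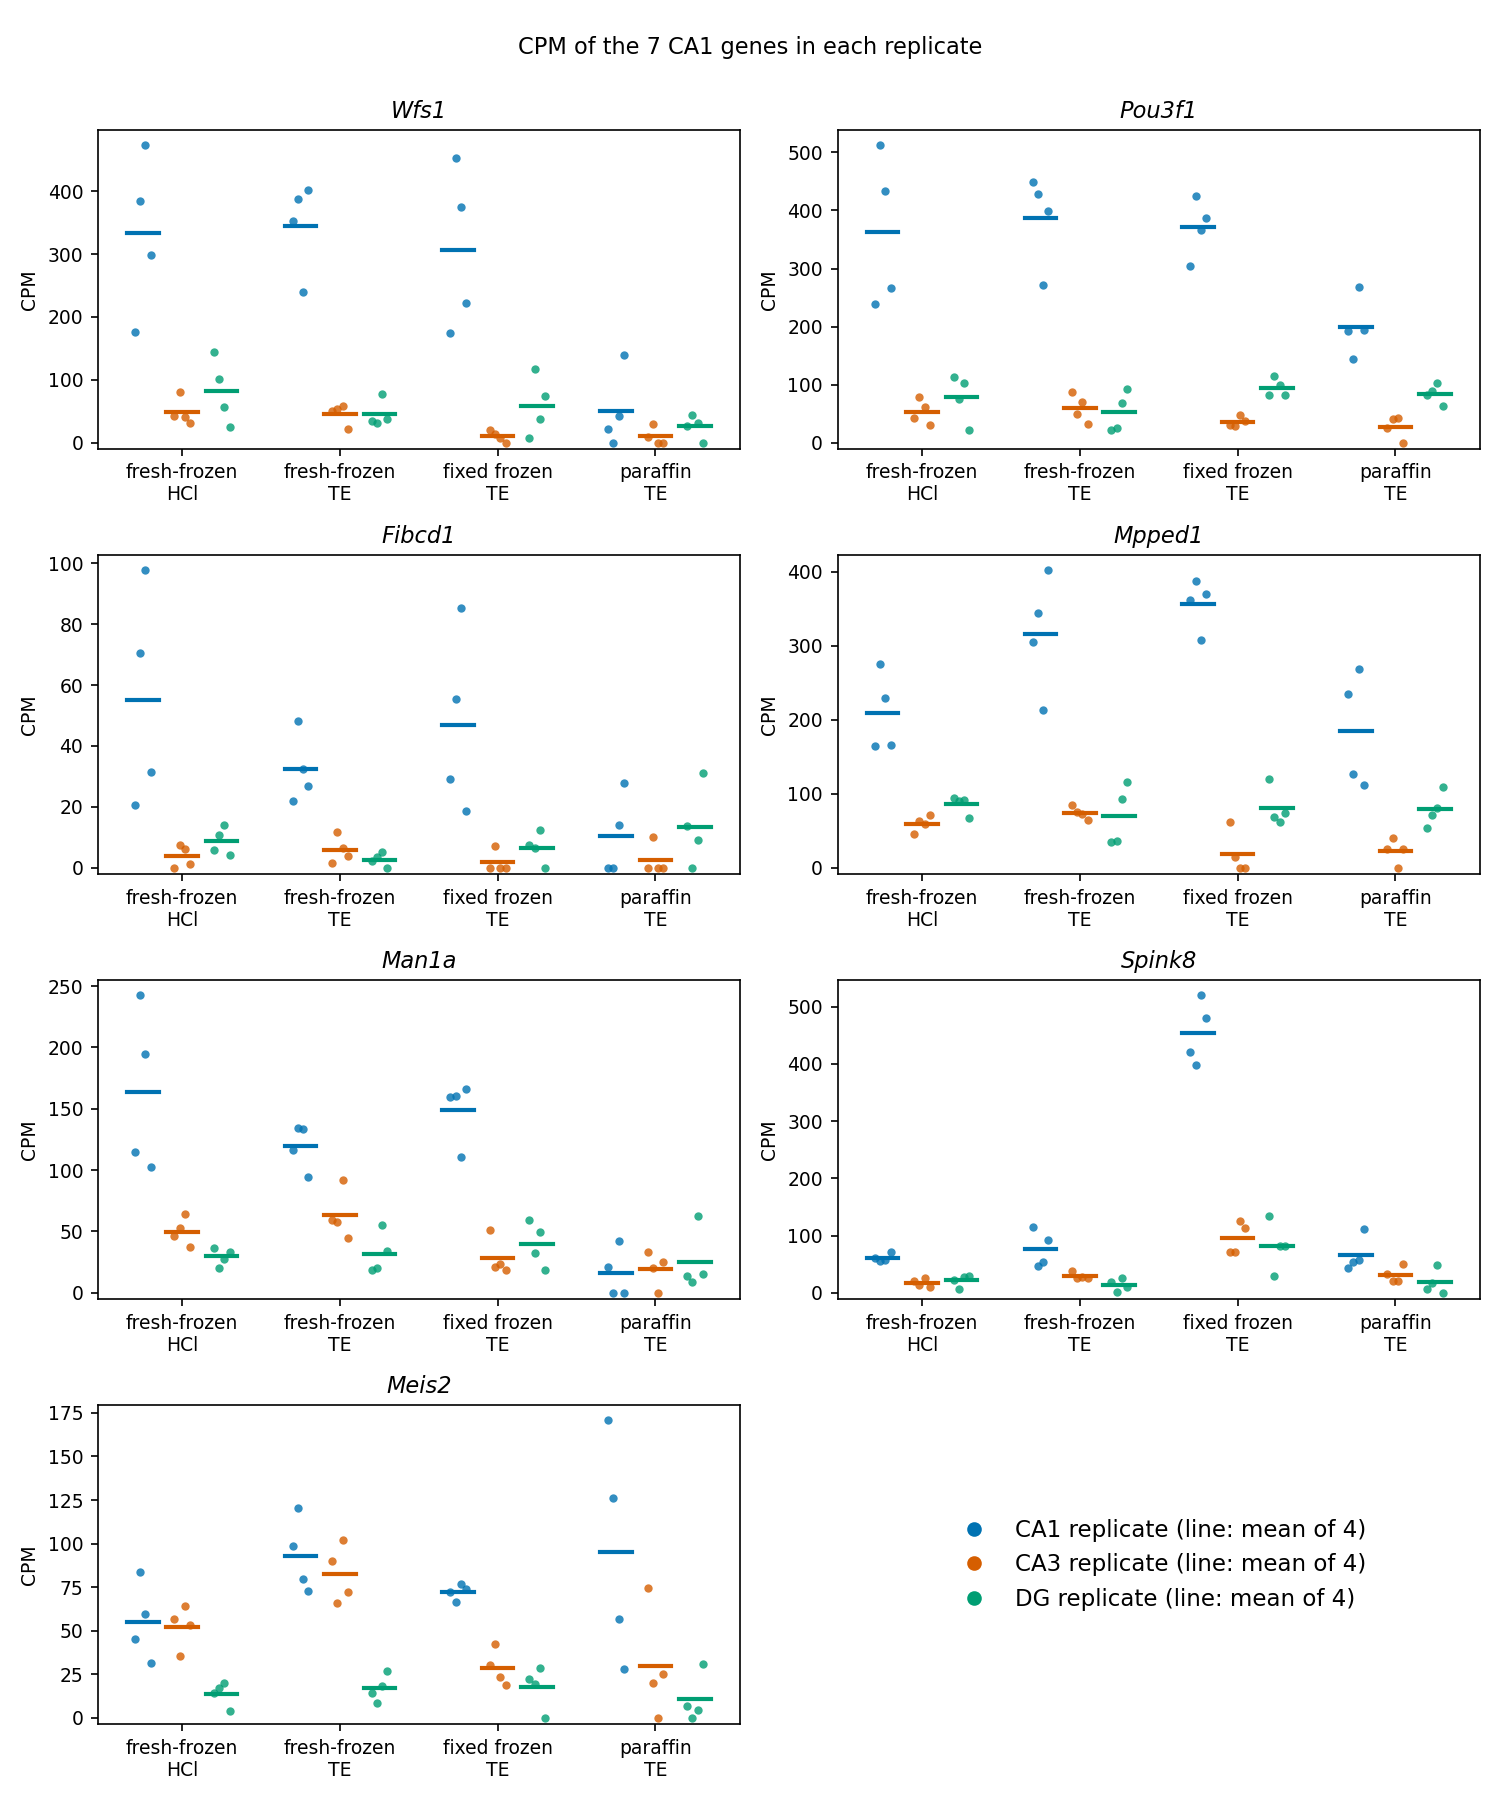
CPM (y axes) of each of the 7 genes in every replicate of CA1, CA3 and DG, by histological condition (x axes); points are replicates and lines the mean of 4. The CA1 points of Wfs1, Pou3f1, Fibcd1, Mpped1, Man1a and Spink8 lie above those of both other regions in the 3 frozen conditions, the CA1 and CA3 points of Meis2 overlap in fresh-frozen sections, and Spink8 is high in fixed frozen sections.

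Wfs1 had 176, 385, 474 and 299 CPM in the 4 CA1 replicates of HCl-permeabilized sections, 353, 387, 239 and 402 CPM in those treated with TE and 174, 453, 375 and 221 CPM in fixed frozen sections. In these 3 conditions the lowest CA1 replicate was above the highest of the other regions, which reached 80.3 CPM in CA3 and 145 CPM in DG. The log2 fold changes of CA1 over DG were 2.0 (SE 0.27), 2.93 (SE 0.24) and 2.29 (SE 0.28) in the HCl, TE and fixed frozen sections. CA3 and DG overlapped in each. In paraffin sections the CA1 replicates had 21.3, 0, 42.4 and 139 CPM from 9 UMIs in all, the DG replicates 27.1, 44.5, 31.4 and 0 CPM, and the CA3 replicates 8.27, 30.2, 0 and 0 CPM. The 3 regions overlapped there, and the ratio of CA1 to DG over the summed UMIs was 1.47 with a 95% interval of 0.573 to 3.54. A count of 0 allowed a level of up to 83.5 CPM in the shallowest CA1 paraffin replicate (3 counts of its total), and intervals and limits of this kind cover counting error only.

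Man1a, the Golgi mannosidase, stood at 115, 243, 194 and 102 CPM in CA1 of HCl-permeabilized sections, 116, 134, 134 and 94.4 CPM with TE and 159, 160, 111 and 166 CPM in fixed frozen sections. All CA1 replicates were above those of CA3 and DG in these conditions, with the narrowest gap in TE-permeabilized sections, where CA3 reached 92.2 CPM. CA3 was above DG without overlap in HCl-permeabilized sections, at 49.9 ± 11.5 CPM against 29.6 ± 7.31 CPM (mean ± SD, n = 4), although the lowest CA3 and the highest DG replicate both stood at 36.9 CPM when rounded. The 2 regions overlapped in the other conditions. In paraffin sections the order of the means was turned, with 15.9 ± 20.3 CPM in CA1, 19.6 ± 14.1 CPM in CA3 and 25.2 ± 25.2 CPM in DG (SD, n = 4), and the regions overlapped. These means rest on 4, 7 and 18 UMIs, and the ratio of CA1 to DG was 0.582 with a counting interval of 0.143 to 1.77.

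Pou3f1 had 239, 513, 434 and 267 CPM in CA1 of HCl-permeabilized sections, 449, 428, 271 and 399 CPM with TE, 304, 426, 367 and 387 CPM in fixed frozen sections and 192, 144, 268 and 195 CPM in paraffin sections. The CA1 replicates lay above all CA3 and DG replicates in all 4 conditions. The highest of the other replicates in paraffin sections was 103 CPM, in DG. Between the other regions, DG was above CA3 without overlap in fixed frozen sections, at 94.4 ± 15.2 CPM against 35.9 ± 8.44 CPM, and in paraffin sections, at 83.9 ± 17.0 CPM against 26.7 ± 19.4 CPM (SD, n = 4). In fresh-frozen sections the 2 regions overlapped.

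Mpped1, the gene with a metallophosphoesterase domain, had 164, 275, 229 and 165 CPM in CA1 with HCl, 304, 343, 213 and 402 CPM with TE, 362, 387, 307 and 369 CPM in fixed frozen sections and 235, 126, 268 and 111 CPM in paraffin sections. As with Pou3f1, CA1 did not overlap the other regions in any condition, although the margin in paraffin sections was 111 against 109 CPM, the highest DG replicate. DG was again above CA3 without overlap in fixed frozen sections, at 80.7 ± 26.1 CPM against 18.8 ± 29.0 CPM (SD, n = 4), from 60 and 8 UMIs. The lowest DG replicate there was 61.9 CPM and the highest CA3 replicate 61.1 CPM. In paraffin sections DG had 78.7 ± 22.9 CPM against 22.5 ± 16.7 CPM in CA3, from 41 and 8 UMIs and without overlap. CA1 to CA3 ratios over the summed UMIs were 3.68 (3.12 to 4.36) with HCl, 4.06 (3.51 to 4.71) with TE, 18.8 (9.32 to 44.4) in fixed frozen and 7.54 (3.49 to 18.6) in paraffin sections, with 95% counting intervals in parentheses.

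Fibcd1, the receptor of acetylated sugars, was measured with few UMIs. Its CA1 replicates had 20.5, 70.5, 97.8 and 31.4 CPM with HCl, 21.8, 48.2, 32.4 and 27.0 CPM with TE and 29.0, 55.3, 85.3 and 18.4 CPM in fixed frozen sections, against at most 11.7 CPM in CA3 and 14.0 CPM in DG of these conditions. CA1 thus lay above both regions without overlap, and the share of CA1 in the sum of the 3 region means was between 79.2% and 84.9%. The fixed frozen CA3 library held 1 UMI, which gave a CA1 to CA3 ratio of 22.9 with an interval of 3.73 to 945. In paraffin sections Fibcd1 had 2 UMIs in CA1, 1 in CA3 and 6 in DG. A regional difference was not detectable at this depth, with a CA1 to DG ratio of 0.872 (interval 0.0861 to 4.88).

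Spink8, the Kazal-type inhibitor, had 60.2, 55.7, 57.5 and 70.7 CPM in CA1 of HCl-permeabilized and 115, 46.7, 54.0 and 91.7 CPM of TE-treated sections. In fixed frozen sections the same region held 420, 398, 520 and 480 CPM, and in paraffin sections 42.7, 54.0, 56.5 and 111 CPM. CA1 was above CA3 and DG without overlap in the 3 frozen conditions, while in paraffin sections the lowest CA1 replicate was below the highest of CA3 (50.1 CPM) and of DG (49.3 CPM). In fixed frozen sections CA3 had 71.3, 70.6, 125 and 114 CPM and DG 134, 29.3, 82.5 and 82.6 CPM. The high level in this condition was therefore seen in all 3 regions, and CA1 kept 71.9% of the sum of the region means, against 64.0% in TE-permeabilized fresh-frozen sections.

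Meis2, the TALE homeodomain factor, had another pattern in fresh-frozen sections. CA1 replicates had 45.1, 83.6, 59.8 and 31.4 CPM with HCl and 98.8, 121, 79.7 and 72.9 CPM with TE, and CA3 replicates had 56.8, 35.3, 64.2 and 53.3 CPM and 89.9, 65.7, 102 and 72.3 CPM. The 2 fields overlapped in both conditions, with a log2 fold change of CA1 over CA3 of 0.12 (SE 0.25) with HCl and 0.18 (SE 0.20) with TE. DG, at 14.2, 17.1, 20.3 and 4.19 CPM with HCl and 14.2, 8.52, 18.5 and 27.2 CPM with TE, lay below both. In these sections Meis2 thus marked both pyramidal fields against DG rather than CA1 alone, which goes against the label of the group for this gene. In fixed frozen sections CA1 (72.4, 66.3, 76.7 and 73.8 CPM) was above CA3 (30.6, 42.3, 23.5 and 18.9 CPM) and DG without overlap, from 30, 13 and 16 UMIs. In paraffin sections CA1 had 171, 126, 56.5 and 27.8 CPM from 20 UMIs and overlapped both other regions. There the ratio of CA1 to DG was 13.1 with a counting interval of 4.38 to 52.6, from 4 UMIs in DG.

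**Figure D2:**
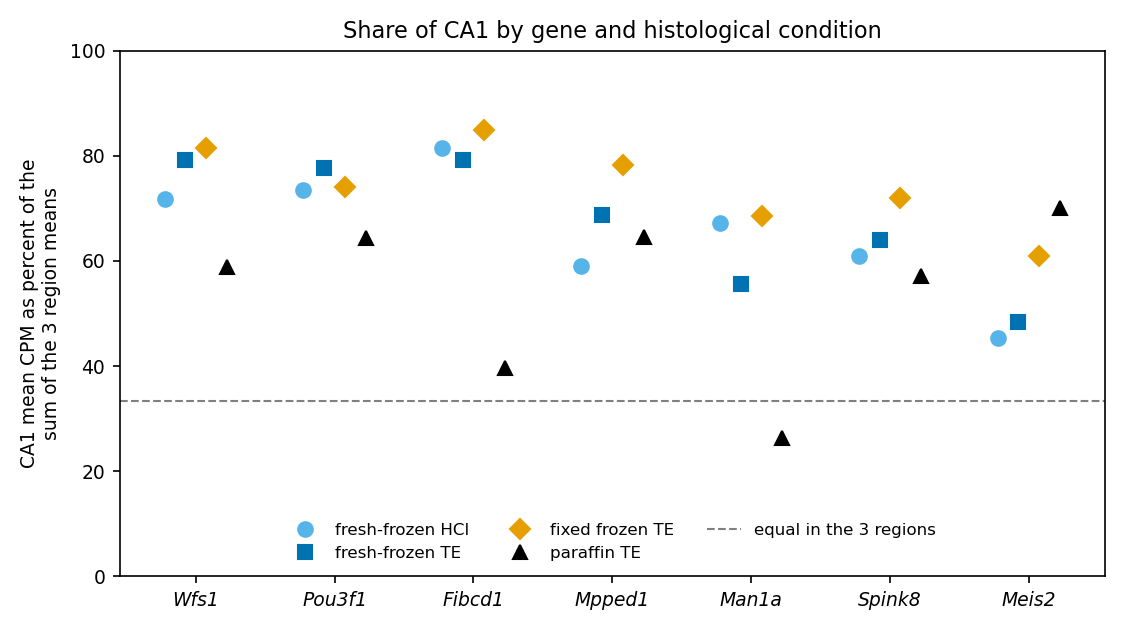
Mean CPM in CA1 as a percent of the sum of the means of CA1, CA3 and DG (y axis) for each gene (x axis), by histological condition (symbols); the dashed line marks equal levels in the 3 regions. Fibcd1 (39.7%) and Man1a (26.2%) are lowest in paraffin sections, whereas Meis2 is lowest with HCl (45.3%) and highest in paraffin sections (70.2%).

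Over the group, all 7 genes had their CA1 replicates above all DG replicates in the 3 frozen conditions, and 2 of 7, Pou3f1 and Mpped1, in paraffin sections. The share of all genes with at least 10 UMIs whose CA1 replicates lay above all DG replicates was 8.94%, 6.82%, 4.71% and 2.51%. Against CA3, 6 genes (all but Meis2) were above without overlap with HCl and with TE, 7 in fixed frozen sections, and Pou3f1 and Mpped1 in paraffin sections, beside 6.57%, 4.61%, 5.61% and 2.90% of all genes. The genes were chosen for this pattern, so the counts are given as a description. In paraffin sections 6 of the 7 had at least 10 UMIs in CA1 and DG, and 6 in CA1 and CA3. Fibcd1 was below this number in both. The median log2 fold change of the fitted genes was 2.0, 2.58, 2.15 and 1.21 for CA1 over DG and 1.79, 2.07, 3.32 and 1.49 for CA1 over CA3, in the order HCl, TE, fixed frozen and paraffin. Over all genes tested the corresponding medians were 0.03, 0.01, -0.11 and -0.18 against DG and -0.01, -0.01, -0.0012 and -0.04 against CA3.

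**Figure D3:**
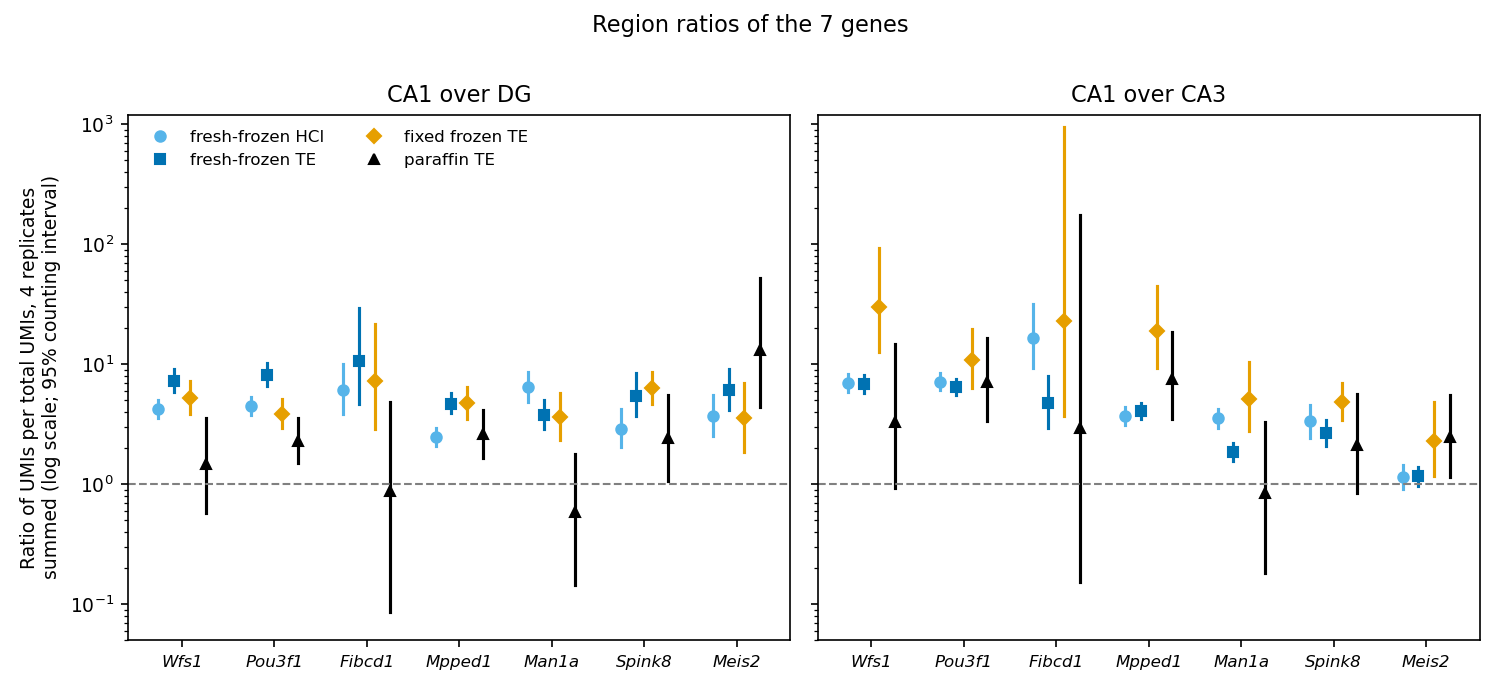
Ratio of CA1 to DG (left) and CA1 to CA3 (right) of the UMIs summed over 4 replicates, divided by the summed totals (y axes, log scale), for each gene (x axes) and condition (symbols); bars are 95% counting intervals and the dashed line is a ratio of 1. Intervals widen in paraffin sections, where those of Wfs1, Fibcd1 and Man1a include 1 in both panels, and the CA1 to CA3 ratios of Meis2 stay near 1 in fresh-frozen sections.

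Permeabilization was compared in fresh-frozen sections with edgeR's quasi-likelihood test on 24 replicates with region as a covariate, with adjusted p-values (Benjamini-Hochberg) over 18164 genes. Mpped1 and Meis2 were lower with HCl than with TE, while 14.3% of all genes tested were called lower and 16.2% higher. With DESeq2 Meis2 alone (1) was called, and 3 of the 7 had an unadjusted p under 0.05 and a value below 0 with edgeR (Mpped1, Meis2 and Spink8). None of the 7 was higher by any of these counts (0 in each). The shares of all genes are of adjusted edgeR calls. At an unadjusted p the share is at least as large, and it was not counted, nor was that with DESeq2. For Meis2 the log2 fold change was -0.71 (SE 0.16, adjusted p = 0.000295 with edgeR), and its means were 0.592 times those with TE in CA1 and 0.636 times in CA3. In CA3 the replicates of the 2 conditions did not overlap. That of Mpped1 was -0.37 (SE 0.15, adjusted p = 0.0451 with edgeR), near the threshold of 0.05. Its mean was 0.660 times that with TE in CA1 and 0.806 times in CA3, but 1.23 times in DG. In the CA1 replicates alone the log2 fold change of Mpped1 was -0.73 (SE 0.19, adjusted p = 0.00361 with edgeR). The Mpped1 call over the 3 regions was lost with DESeq2 (adjusted p = 0.137), and leaving out any of 15 of the 24 replicates also ended it (adjusted p between 0.0505 and 0.117 with edgeR). With HCl these were CA1 replicates 1, 3 and 4, CA3 replicates 1 and 3 and DG replicate 4, and with TE they were CA1 replicates 1, 2 and 4, all CA3 replicates and DG replicates 3 and 4. Spink8 (-0.47, SE 0.21), Man1a (-0.09, SE 0.16), Pou3f1 (-0.04, SE 0.18), Wfs1 (0.06, SE 0.18) and Fibcd1 (0.49, SE 0.31) did not pass the test, and the median over all genes was 0.10. The adjusted p of Spink8 was 0.0879 (edgeR), and this gene passed without DG HCl replicate 3 (0.0322), CA1 TE replicate 2 (0.0471) or DG TE replicate 2 (0.0207), and with the replicate number as a block (0.0317). The means of Spink8 were 0.795 times those with TE in CA1 and 0.596 times in CA3, but 1.56 times in DG. Astrocyte markers also differed in CA1, where their 6 genes summed to between 3438 and 4057 CPM with HCl against 4483 to 5863 CPM with TE, with no marker at 0. They overlapped in CA3 (3956 to 4605 against 4339 to 5290 CPM) and in DG (4354 to 5677 against 5489 to 8001 CPM). The 7 oligodendrocyte markers summed to between 9492 and 18852 CPM in CA1 with HCl and between 6262 and 10612 CPM with TE, with overlap. The part of either in the values of Mpped1 and Meis2 was not tested.

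**Figure D4:**
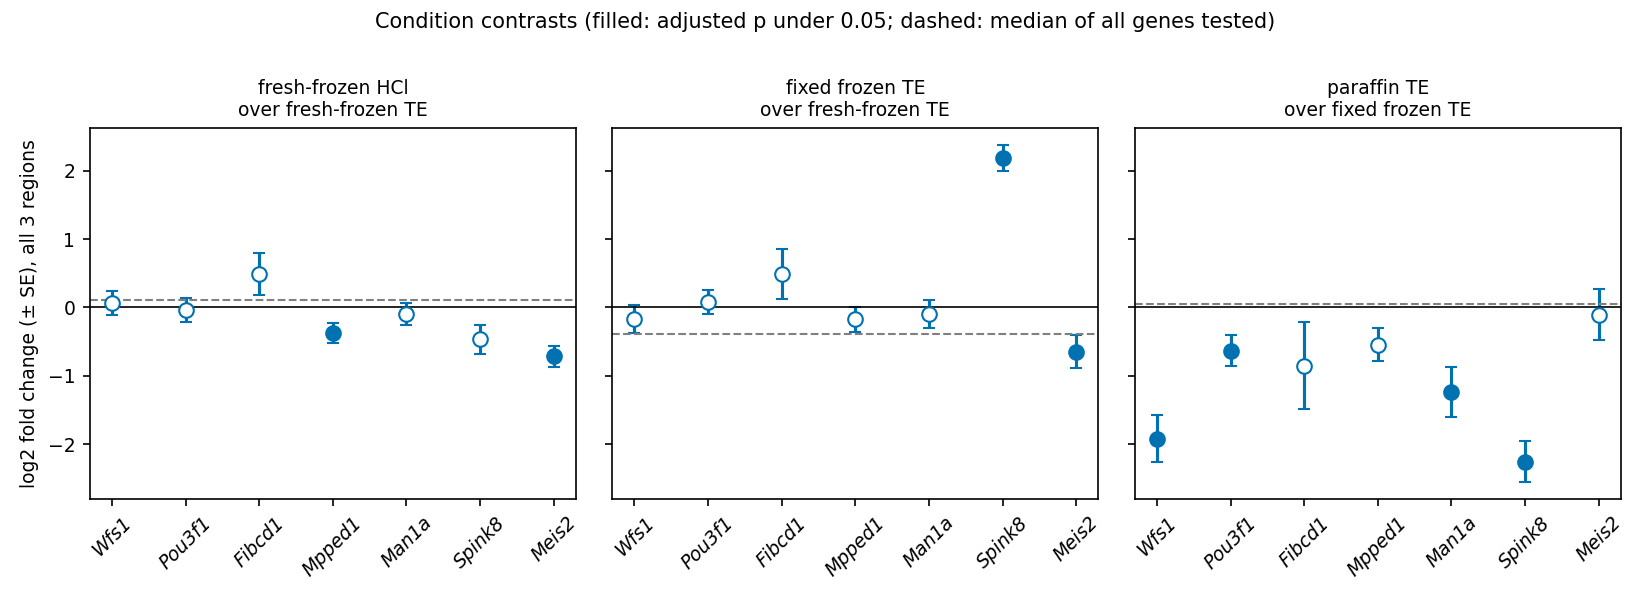
Log2 fold change (y axis) of each gene (x axis) for the 3 contrasts of histological conditions, fitted over CA1, CA3 and DG with edgeR; bars are SE, filled points passed the test and dashed lines are the median of all genes tested. Spink8 stands at 2.19 in fixed over fresh-frozen sections, and 4 genes passed in paraffin over fixed frozen sections, each lower.

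Fixation was compared between fixed frozen and fresh-frozen sections, both permeabilized with TE. Spink8 was higher in fixed frozen sections, at 2.19 on the log2 scale (SE 0.19, adjusted p = 1.34e-17 with edgeR), where 15.8% of the 15878 genes tested were called higher and 32.9% lower. The means were 5.92 times those of fresh-frozen sections in CA1, 3.24 times in CA3 and 5.94 times in DG, and the replicates of both conditions did not overlap in any region. In the CA1 replicates alone the log2 fold change was 2.50 (SE 0.22), and over the 3 regions 2.15% of the genes tested had a larger one. The median over all genes was -0.39. Meis2 was the other gene that passed, at -0.65 on the log2 scale (SE 0.24, adjusted p = 0.0149 with edgeR), which is -0.26 relative to that median, while Spink8 was at 2.58 relative to it. Its mean was 0.350 times that of fresh-frozen sections in CA3, without overlap, 0.778 times in CA1 and 1.04 times in DG, both with overlap. In the CA1 replicates alone the Meis2 change did not pass (-0.45, SE 0.33, adjusted p = 0.302 with edgeR), and over the 3 regions it was lost with the stricter filter of filterByExpr (adjusted p = 0.0694 with edgeR). Wfs1 (-0.17, SE 0.20), Pou3f1 (0.08, SE 0.18), Fibcd1 (0.49, SE 0.37), Mpped1 (-0.17, SE 0.19) and Man1a (-0.10, SE 0.20) did not pass. In CA3, however, the fixed frozen replicates of Wfs1 and Mpped1 were all below the fresh-frozen ones, at 0.229 and 0.254 times the mean. They held 5 and 8 UMIs. The share of all genes without overlap between conditions was not counted, for this contrast or the others, so such gaps are a description. Astrocyte markers moved with fixation as well, and their 6 genes summed to between 1421 and 2055 CPM in CA1 of fixed frozen sections against 4483 to 5863 CPM in fresh-frozen ones. Their part in the values of the 7 genes was not tested.

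Embedding was compared between paraffin and fixed frozen sections. Wfs1, Spink8, Man1a and Pou3f1 were lower in paraffin sections, beside 14.4% of the 12189 genes tested called lower and 13.7% higher. With DESeq2 3 of them were called (Wfs1, Spink8 and Man1a), and 5 of the 7 had an unadjusted p under 0.05 and a value below 0 with edgeR (these 4 and Mpped1). None of the 7 was higher by any of these counts (0 in each). Here too the shares of all genes are of adjusted edgeR calls, and those at an unadjusted p or with DESeq2 were not counted. Spink8 changed by -2.25 on the log2 scale (SE 0.30, adjusted p = 1.85e-14 with edgeR), and CA1 held 0.146 times the mean of fixed frozen sections. For Wfs1 the change was -1.92 (SE 0.35, adjusted p = 4.35e-08 with edgeR), with 0.166 times the mean in CA1, without overlap, 0.910 times in CA3 and 0.438 times in DG. Man1a changed by -1.23 (SE 0.37, adjusted p = 0.00222 with edgeR), and its CA1 replicates, at most 42.4 CPM, were all below the lowest fixed frozen replicate of 111 CPM. Pou3f1 changed by -0.63 (SE 0.22, adjusted p = 0.0188 with edgeR), with 0.539 times the mean in CA1. This call was lost with DESeq2 (adjusted p = 0.117), and in edgeR with the size factors of DESeq2 (0.127) or filterByExpr (0.0750). After thinning each replicate to 35932 UMIs its adjusted p was 0.526 with edgeR. The call was also lost without any of CA1 fixed frozen replicate 2, DG fixed frozen replicate 2 or CA1 paraffin replicate 2 (adjusted p = 0.0950, 0.060 and 0.0553 with edgeR).

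Mpped1 (-0.55, SE 0.24, adjusted p = 0.0663 with edgeR), Fibcd1 (-0.85, SE 0.64) and Meis2 (-0.10, SE 0.37) did not pass over the 3 regions. Mpped1 passed in the CA1 replicates alone, at -0.91 (SE 0.31, adjusted p = 0.0292 with edgeR), and over the 3 regions without CA3 fixed frozen replicate 3 (adjusted p = 0.0443) or DG paraffin replicate 4 (adjusted p = 0.0467). Its CA1 paraffin replicates, at most 268 CPM, lay below the lowest fixed frozen one of 307 CPM. Meis2 had 1.32 times the fixed frozen mean in CA1. The median change over all genes was 0.05, and that over the 7 genes -0.85. The summed level of the 7 genes in CA1 was between 450 and 749 CPM in paraffin and between 1521 and 1946 CPM in fixed frozen sections. Spink8 alone had a mean of 454 CPM in CA1 of the latter. The CA3 list in CA3 was also lower in paraffin sections without overlap (439 to 877 against 1122 to 1269 CPM). So was the DG list in DG (631 to 1071 against 1321 to 1533 CPM). The oligodendrocyte markers given above overlapped in CA1 and were higher without overlap in CA3 and DG of paraffin sections. Their part was not tested.

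Another 5 genes known from CA1 or from hippocampal pyramidal neurons were set beside the group, namely Ndst4, Gpr161, Ociad2, Dkk3 and Neurod6. They were chosen as genes of CA1 with results of these data known, so their differences between regions are a description as well. Those that were fitted had a median log2 fold change over DG of 1.09 (HCl), 1.42 (TE), 1.5 (fixed frozen) and 0.67 (paraffin), beside 0.03, 0.01, -0.11 and -0.18 for all genes. Ociad2, a protein with an OCIA domain, had log2 fold changes of 1.09 (SE 0.20) with HCl and 1.48 (SE 0.21) with TE. Dkk3, a secreted glycoprotein of the Dickkopf family, had 1.42 (SE 0.16) with TE and 1.21 (SE 0.28) in paraffin sections. Ndst4, a heparan sulfate sulfotransferase, was closer to 0, at 0.35 (SE 0.32) with HCl and 0.60 (SE 0.25) with TE. Neurod6 had 0.91 (SE 0.22) with HCl, 1.23 (SE 0.19) with TE and 1.55 (SE 0.20) in fixed frozen sections. In paraffin sections Ociad2 had 0.66 (SE 0.31), Ndst4 0.68 (SE 0.98) and Neurod6 0.16 (SE 0.34). Gpr161 had 3.06 (SE 0.99) with HCl and 3.06 (SE 1.11) with TE, from 33 and 26 UMIs in CA1 and 3 and 2 in DG.

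Against CA3 the list was divided. Gpr161 was higher in CA1 here as well, at 2.86 (SE 0.76) with HCl and 2.12 (SE 0.67) with TE, from 6 and 7 UMIs in CA3. The log2 fold change of Ndst4 was 2.57 (SE 0.43) with HCl, 2.31 (SE 0.29) with TE and 2.88 (SE 0.99) in fixed frozen sections. That of Dkk3 was -0.60 (SE 0.15) with HCl, -0.34 (SE 0.16) with TE, -0.09 (SE 0.20) in fixed frozen and -0.18 (SE 0.31) in paraffin sections. Neurod6, a basic helix-loop-helix factor of pyramidal neurons, had -0.36 (SE 0.16), -0.30 (SE 0.19), 0.07 (SE 0.19) and -1.24 (SE 0.36) in the same order. Ociad2 had 0.48 (SE 0.16), 0.20 (SE 0.17), 0.76 (SE 0.21) and 0.26 (SE 0.37). Ndst4 had 65.6 ± 12.6 CPM in CA1, 12.9 ± 5.7 CPM in CA3 and 44.4 ± 17.4 CPM in DG of TE-permeabilized fresh-frozen sections (SD, n = 4). It was thus low in CA3 where Meis2 was low in DG.

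Between conditions, 3 of the 5 passed downwards with HCl (Ndst4, Dkk3 and Neurod6), beside 14.3% of all genes. Ociad2 and Neurod6 passed upwards and Dkk3 downwards in fixed over fresh-frozen sections, beside 15.8% and 32.9% of all genes. Ndst4, Ociad2 and Neurod6 passed downwards in paraffin over fixed frozen sections, 3 of 4 tested beside 14.4% of all genes. Ociad2 had log2 fold changes of 1.3 (SE 0.13) in fixed over fresh-frozen and -0.87 (SE 0.17) in paraffin over fixed frozen sections, and Neurod6 had 0.83 (SE 0.12) and -0.99 (SE 0.16), so that both were called in the same directions as Spink8 in these contrasts.

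The list of close relatives and partners of the 7 genes, which were tested between regions, held Pou3f2, Pou3f3 and Pou3f4, Meis1 and Meis3, the Meis partner Pbx3, Man1a2 and Man1c1, Mpped2, and Cisd2, the other gene of Wolfram syndrome. Against DG, 2 of 10 passed with HCl (Man1c1 and Pbx3, both downwards) and 1 of 10 with TE (Pou3f3, upwards), beside 17.0% and 10.1% of all genes called in either direction. None (0) passed in fixed frozen and paraffin sections with edgeR, where 8.14% and 3.29% of all genes were called and 1 (Pou3f3) and 1 (Cisd2) had an unadjusted p under 0.05. Against CA3, Pou3f3 passed upwards in the 3 frozen conditions (1 of 10 with HCl, 1 of 10 with TE and 1 of 7 tested in fixed frozen sections, beside 9.13%, 4.40% and 7.20% of all genes), and no other relative passed in any condition. In paraffin sections 0 passed with edgeR, beside 2.36% of all genes, and Pou3f3 alone (1) had an unadjusted p under 0.05. All these shares are of adjusted calls. Pou3f3, a POU-domain factor like Pou3f1, had 396 ± 57.3 CPM in CA1, 221 ± 20.6 CPM in CA3 and 254 ± 27.7 CPM in DG with TE (SD, n = 4), which over DG is 0.67 on the log2 scale (SE 0.16) where that of Pou3f1 was 3.02 (SE 0.26). Man1a2 had a log2 fold change over DG between -0.67 and 0.43 in the 4 conditions. The median log2 fold change of the list over DG was 0.06, 0.16, 0.12 and 0.02 in the order HCl, TE, fixed frozen and paraffin.

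In fixed over fresh-frozen sections 5 of the 10 relatives passed downwards (Man1a2, Mpped2, Pou3f2, Pou3f3 and Pou3f4), beside 32.9% of all genes, with a median log2 fold change of -0.77 against -0.39 for all genes. With HCl over TE 3 of 10 passed downwards (Man1a2, Mpped2 and Pou3f3) and 1 upwards (Meis3), beside 14.3% and 16.2% of all genes. In paraffin over fixed frozen sections Man1a2 and Mpped2 passed downwards and Meis1 and Pbx3 upwards, 2 of 10 each way beside 14.4% and 13.7% of all genes.

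Among the genes whose levels over the 12 libraries were most like the mean of the 7, by Pearson r between log2 values centred within each condition, were Nr4a1 (r = 0.994), Plk2 (0.992), 9130024F11Rik (0.988) and Rxfp1 (0.981), out of 9006 genes that averaged 5 UMIs or more per replicate. The 12 points share their libraries, and r is a description. Among the 7 themselves, Wfs1 was closest to the mean (0.963) and Meis2 farthest (0.700). Nr4a1, a nuclear receptor induced by activity, had 48.1 CPM in CA1, 20.3 CPM in CA3 and 11.3 CPM in DG with TE (means, n = 4). Rxfp1, the relaxin receptor, had 59.8, 18.3 and 15.6 CPM in the same libraries, and the lncRNA 9130024F11Rik 35.1, 7.25 and 4.33 CPM. Plk2, a polo-like kinase, had 301, 139 and 107 CPM with TE and 994, 234 and 349 CPM in fixed frozen sections, so that its level, like that of Spink8, was highest in the fixed frozen CA1 library.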

How the data were processed

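PIC libraries of CA1, CA3 and DG in 4 histological conditions were sequenced after CEL-seq2, 12 libraries of 4 barcoded replicates each. The authors read barcodes and 6-base UMIs with UMI-tools 1.0.0, aligned reads with HISAT2 2.1.0, assigned them to genes with featureCounts 1.6.4, named with no strand option, and deposited whole UMI counts per gene and replicate without normalization. Counting 3′ tags gives no transcript length, so levels are compared between samples and not between genes. A table of barcodes was not used.

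Groups followed the sample titles. CPM were counts scaled by the total of a replicate. Conditions were compared with edgeR 4.0.16 in R 4.3.3 (quasi-likelihood test, TMM, region as a covariate, genes with at least 10 UMIs, Benjamini-Hochberg adjustment over all genes, called at an adjusted p under 0.05), after a check on simulated data. The same fit without covariate on 8 replicates gave log2 fold changes between regions. Its calls were counted for the list of relatives only, and also served to choose the named genes of both lists. In a contrast named A over B, values above 0 are higher in A. Intervals of ratios are exact binomial at 95%, and 3 counts were taken as the limit of a count of 0. Alternatives were DESeq2 1.42.0, its size factors, other filters, CA1 alone, the replicate number as a block, thinning to 35932 UMIs and leaving out each replicate. The genes most alike had the highest Pearson r of centred log2(CPM + 10) over the 12 libraries. Named genes are the 7 genes, members of the 2 lists of other genes that passed a regional test in at least 2 conditions, and the 5 most alike. Of these 5, 1 is not reported here, nor is 1 gene of each list, and the lists are counted without them. Relatives that passed in fewer are named after their values were seen. The genes and lists were chosen with earlier results of these data known. Whether same-numbered replicates deviate together was checked by correlation. It was above 0.1 in 9 of 12 pairs of HCl and TE, and in at most 1 of 12 for the other contrasts.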

Additional observations from a re-analysis of the deposited data

Results flagged for a closer look

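In 7 of the 84 groups of 4 replicates, 1 replicate stood apart from the other 3 by Dixon's criterion for 4 values at the 95% level, where about 1 in 20 groups is flagged by chance. Above the others were Wfs1 in DG with TE in fresh-frozen sections (77.2 CPM, replicate 3), Fibcd1 in CA3 of fixed frozen (7.06 CPM, replicate 2) and of paraffin sections (10.1 CPM, replicate 2), each from 1 UMI, Man1a in CA3 of fixed frozen sections (50.9 CPM, replicate 1) and Man1a in DG of paraffin sections (62.8 CPM, replicate 3). Below the others were Mpped1 in DG with HCl (67.0 CPM, replicate 4) and Man1a in CA1 of fixed frozen sections (111 CPM, replicate 3).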

How the results depend on the processing

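The counts of genes called moved with the processing. Of the 2 called between HCl and TE, 1 was called with DESeq2, 1 with its size factors in edgeR, 1 with filterByExpr, 0 after thinning, and 1 to 3 with each replicate left out. Of the 2 called in fixed over fresh-frozen sections, Spink8 alone (1) was called with filterByExpr, in CA1 replicates alone and after thinning, and 2 with each replicate left out. The 4 of paraffin over fixed frozen sections became 2 (Wfs1 and Spink8) with filterByExpr, which left Man1a, Fibcd1 and Meis2 untested, and 3 to 5 with each replicate left out. After thinning, Pou3f1 was no longer called in this contrast (adjusted p = 0.526 with edgeR). No log2 fold change of a called gene turned its direction under any of these. Same-numbered replicates correlated between 0.029 and 0.369 for HCl and TE, above 0.1 in 9 of 12 pairs (all of CA3 and DG and 1 of CA1), and above 0.1 in at most 1 of 12 pairs for the other contrasts. Since not every pair was above 0.1, the numbers were not used as a block in the test reported. That rule was a choice. All pairs of HCl and TE were positive, so the test reported may ignore a pairing there. Replicate 4 had the lowest total in all 12 libraries. With the replicate block, 20 of 21 fold changes kept their side of the threshold, and Spink8 passed between HCl and TE (-0.47, adjusted p = 0.0317 with edgeR). After thinning to the smallest total, the genes with CA1 above DG fell to 3 with HCl and 1 in paraffin sections, those above CA3 to 3 with HCl and 3 with TE, and in paraffin sections 1 lay above DG with TMM-scaled totals. Fibcd1, Man1a and Wfs1 had 2, 4 and 9 UMIs in CA1 of paraffin sections, which limits the precision of these values.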
